A study of Mus musculus with 4 samples.

Results

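Alternative macrophage activation was followed here through 5 genes: Arg1, Mrc1, Chil3, Il4ra and Tgm2. They were selected on the annotation, as probe sets with exactly 1 gene symbol equal to one of these names. The names themselves had been picked from the same contrast of Cebpe-deficient with wild-type cells, so their ratios describe that choice and support nothing beyond it. The 5 genes had 5 probe sets, 1 each, among 6137 genes with such a probe set. Arg1 (probe set U51805_s_at), Chil3 (m94584_s_at), Il4ra (m27960_s_at) and Tgm2 (M55154_s_at) were on array type A, and Mrc1 (Z11974_s_at) was on type B.

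Total RNA came from peritoneal exudate cells of wild-type (C/EBPE +/+) and C/EBPE -/- mice, both 129/SvEv x NIH Black Swiss, 6 to 8 weeks old and 4 per genotype. C/EBPε, the product of Cebpe, is a transcription factor of late myeloid maturation. All mice had received 2 ml of 4% thioglycollate broth, a sterile irritant, in the peritoneal cavity 24 h before lavage, so no untreated cavity was compared. Per the labels, cell smears from either genotype, counted over 100 to 200 cells, were about 60% neutrophils, 30% monocytes and 7 to 10% lymphocytes. The label text on how cells were combined across mice breaks off. Each genotype had 1 array of each of the 2 types, 4 arrays in all. No difference below has a replicate check, and no test between genotypes was possible. In such bulk RNA, fewer cells of a type and less RNA per cell cannot be told apart.

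Interleukin 4 and interleukin 13 bind receptors that contain the chain encoded by Il4ra, and Janus kinases then activate STAT6. In macrophages this programme induces Arg1, Mrc1, Chil3 and Tgm2, whose products act in arginine breakdown, uptake of glycoproteins, lectin-like binding and protein cross-linking. C/EBPβ, a relative of C/EBPε, is known to take part in the induction of Arg1 by acting at an enhancer upstream of the gene.

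The RefSeq promoter table of GRCm38.p6, which gives 250 bases before and 50 after a gene's start, held 3 of the 5 genes: Mrc1, Chil3 and Il4ra. Their windows are printed below for their letters alone, and whether these bear on the ratios was not tested. Arg1 and Tgm2 had no window. Capitals mark matches, on either strand, to GAGGAA (the core letters bound by PU.1, the myeloid ETS factor) or to TATAAA (the TATA box). The windows are Mrc1 at chr2:14229164-14229463 on the plus strand, Chil3 at chr3:106167515-106167814 on the minus strand and Il4ra at chr7:125552021-125552320 on the plus strand. Each is printed 5′ to 3′ on the strand of its gene.
Mrc1: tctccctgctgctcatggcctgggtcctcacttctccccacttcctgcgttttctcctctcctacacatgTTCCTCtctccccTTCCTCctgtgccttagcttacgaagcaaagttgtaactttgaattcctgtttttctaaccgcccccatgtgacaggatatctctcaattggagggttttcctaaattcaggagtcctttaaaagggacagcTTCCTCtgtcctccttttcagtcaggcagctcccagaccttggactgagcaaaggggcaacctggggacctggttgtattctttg
Chil3: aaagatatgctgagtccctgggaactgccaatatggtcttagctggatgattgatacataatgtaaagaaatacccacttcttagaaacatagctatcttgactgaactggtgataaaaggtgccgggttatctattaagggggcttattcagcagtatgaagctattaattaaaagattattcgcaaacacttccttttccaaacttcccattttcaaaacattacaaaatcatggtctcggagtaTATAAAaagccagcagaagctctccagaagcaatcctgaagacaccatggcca
Il4ra: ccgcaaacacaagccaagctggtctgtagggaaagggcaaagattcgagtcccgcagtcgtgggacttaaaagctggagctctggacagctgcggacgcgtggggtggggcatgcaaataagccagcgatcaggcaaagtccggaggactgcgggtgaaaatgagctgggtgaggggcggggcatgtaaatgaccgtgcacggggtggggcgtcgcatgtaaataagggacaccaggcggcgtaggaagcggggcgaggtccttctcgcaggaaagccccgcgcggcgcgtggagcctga

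The Mrc1 window held 3 GAGGAA matches, all on the strand opposite to the gene, beginning at positions -180, -167 and -35 from the start site. The Chil3 window held none of these and 1 TATAAA match, which began at position -3. Il4ra had no match to either and the highest G and C content, 62.0%, against 50.3% for Mrc1 and 38.7% for Chil3. The median over all windows was 52.7%. Of 32851 windows of this length in the table, 28.28% held GAGGAA and 13.62% held TATAAA. No match was found in the 3 windows to TTGCNNAA, letters that C/EBP factors bind, or to TTCNNNNGAA, the spacing that STAT6 prefers, and 10.8% and 6.95% of all windows held these. These searches cover only the printed windows and these letters.

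Arg1, the arginase that breaks arginine down to ornithine and urea, had the highest signal of the 5 genes in wild-type cells. Its scaled signal was 80086 in wild-type and 12692 in deficient cells, in the array's own units. The wild-type reading was high and the deficient one was still well above the signal floor of 1036.5, the median of both arrays of that type. The log2 ratio of deficient over wild-type was -2.66, so the gene read 6.31-fold lower and kept 15.8% of the wild-type signal. Arg1 ranked 5 of 6529 probe sets on the wild-type array and 389 of 6529 on the deficient one. It had the lowest ratio of the 2949 probe sets above the floor on both arrays of type A, and also the largest loss of signal, a difference of -67395. Of the 5 measured probe sets at least as bright as Arg1 in wild-type cells, Arg1 itself was the 1 lower by 2-fold or more. The highest deposited value on that array was 97120, and no saturation flags were used here.

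Mrc1 encodes the macrophage mannose receptor, CD206, an endocytic lectin of the macrophage surface. Its signal was 16150 in wild-type and 3280 in deficient cells, against a floor of 690.17 on type B. The wild-type array was the higher one, and the deficient reading was 4.75 times the floor. The log2 ratio was -2.30, or 4.92-fold lower. In rank Mrc1 went from 373 to 1434 of 6540 probe sets. Its ratio was the tenth from the bottom, 10 of 2954 measured on B. Of the 373 measured probe sets at least as bright in wild-type cells, 18 were lower by 2-fold or more, Mrc1 among them.

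**Figure D1:**
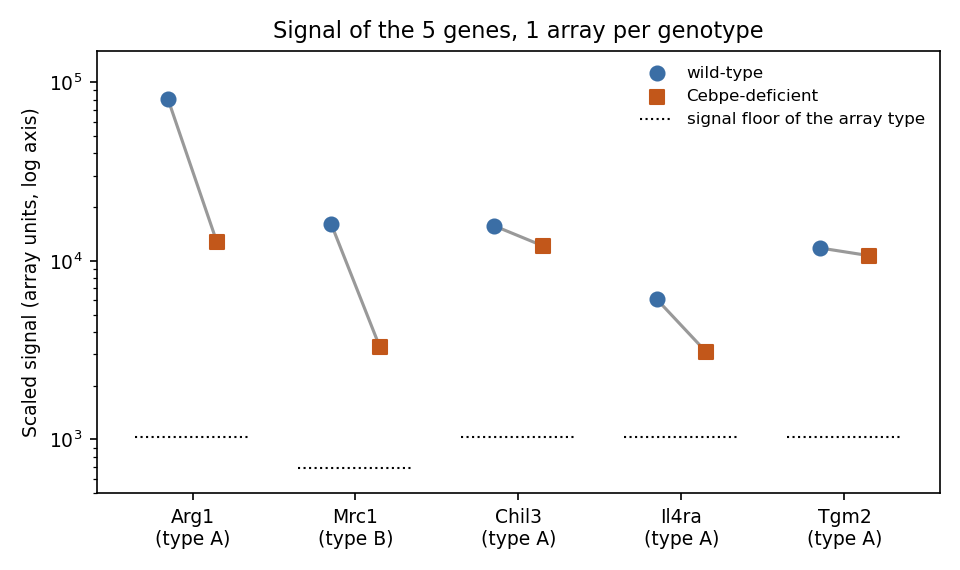
Scaled signal of the 5 genes on a log axis, with 1 wild-type array (circles) and 1 Cebpe-deficient array (squares) per gene, and the signal floor of the array type as a dotted line. Arg1 went from 80086 to 12692 and Mrc1 from 16150 to 3280, while both points of Chil3 and of Tgm2 lie close together.

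Il4ra, the receptor chain shared by the receptors for interleukin 4 and interleukin 13, lay between these genes and the others. Its signal was 6073 in wild-type and 3100 in deficient cells, and its rank went from 874 to 1676 of 6529. The lower reading was 2.99 times the floor, the dimmest of the 5 genes relative to its floor. The log2 ratio of -0.97 put it just short of 2-fold, at 1.96-fold lower, and loess normalisation brought it to the threshold. It stood 97 from the bottom among the 2949 measured probe sets of A.

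Chil3, also called Ym1, encodes a secreted chitinase-like lectin that macrophages make under interleukin 4 and that neutrophils also express. Its signals were 15710 and 12120 in that order of genotype, a log2 ratio of -0.37 or 1.30-fold. Its place hardly moved, from 285 to 410 of 6529, and it read 11.7 times the floor in deficient cells. Its neighbour and close copy Chil4 had no probe set under its own name, so RNA of Chil4 in this signal could not be told apart.

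Tgm2, transglutaminase 2, cross-links proteins through glutamine and lysine side chains and is also induced by retinoids. It had the smallest difference of the 5, with 11801 in wild-type and 10691 in deficient cells, a log2 ratio of -0.14. Its rank was 416 of 6529 on the wild-type array and 470 on the deficient one. With the arrays scaled to the bacterial hybridisation controls its ratio turned to 0.06. Under it the type A median ratio over everything measured went from 0.02 to 0.21, and relative to that median Tgm2 stood at -0.15.

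**Figure D2:**
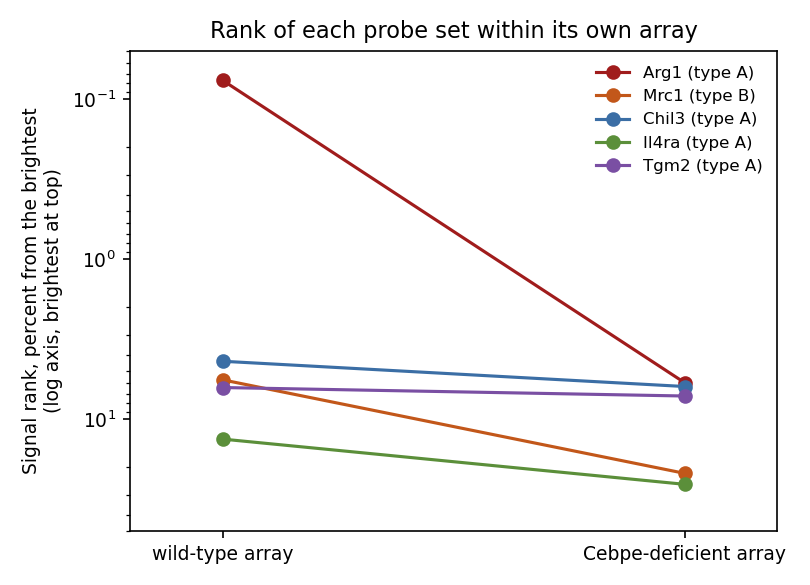
Rank of each probe set within its own array, as percent from the brightest probe set on a log axis with the brightest at the top, for the wild-type and the Cebpe-deficient array. Arg1 went from the top 0.0766% to the top 5.96%, beside Chil3 at 6.28% and Tgm2 at 7.20%, and Mrc1 went from 5.70% to 21.9%, beside Il4ra at 25.7%.

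Ranks place a probe set within 1 array and do not compare amounts of RNA between genes, since probe sets differ in brightness per transcript. By rank, Arg1 stood far above the other genes of type A in wild-type cells and level with Chil3 and Tgm2 in deficient cells, at 389, 410 and 470. Among the 5541 probe sets of A with 1 gene symbol Arg1 ranked 4 and 313.

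All 5 genes had a log2 ratio below 0, with a median of -0.97. Over the 3132 genes measured on both arrays of a type, the median was 0.01 and 49.0% were below 0. Arg1 and Mrc1, 2 of the 5, were lower by 2-fold or more, where 3.15% of measured probe sets on A, 3.76% on B and 3.64% of genes passed that threshold. Since these genes were chosen with this contrast known, their share is not read against that background. The size of error in a single ratio was taken from genes with repeat probe sets, on the same array type or on both. The pooled SD was 0.28 log2 units where both arrays were at least 3 times the floor (215 genes) and 0.47 where the weaker one was below that (94 genes). The ratios of Arg1 and Mrc1 were 9.49 and 8.21 of these SDs in size, that of Il4ra 2.06, Chil3 1.34 and Tgm2 0.51. Il4ra took the larger SD because its deficient reading, 2.99 times the floor, fell just below that split. The error from repeat probe sets holds no spread between mice, so it does not show how far wild-type mice differ among themselves. Repeats on the same array type also share their arrays, so error common to a whole array is left out there.

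**Figure D3:**
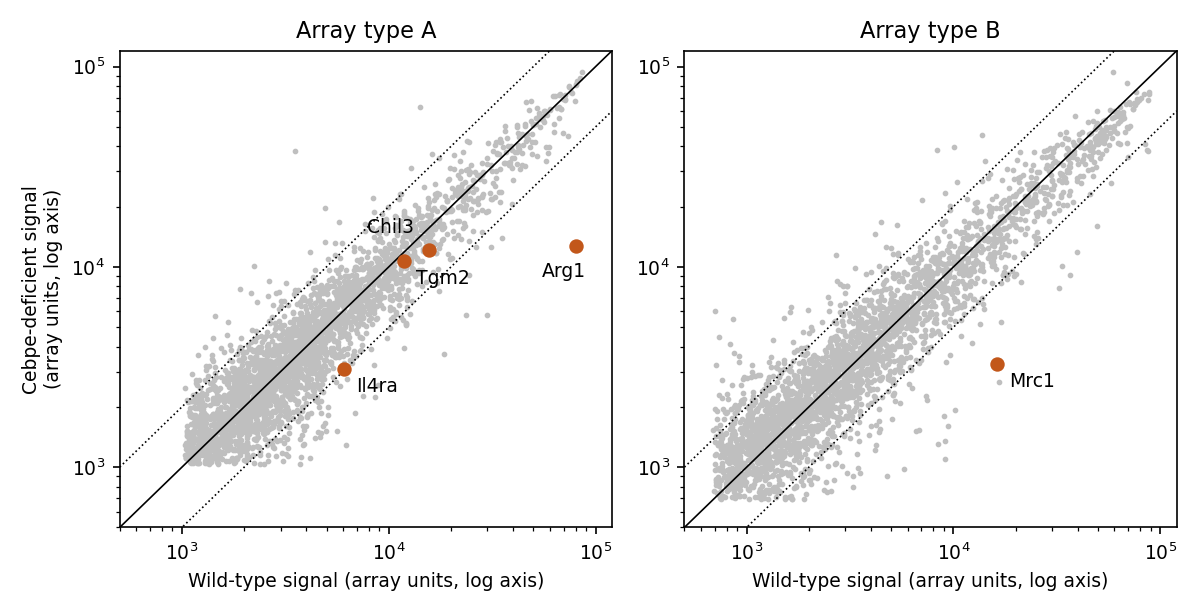
Cebpe-deficient against wild-type signal, both in array units on log axes, for probe sets whose signal passed the floor in both genotypes (grey), with the 5 genes in orange on array type A or B. The solid line marks equal signal and dotted lines mark 2-fold. Arg1 is the lowest ratio on A, and Il4ra lies at the lower 2-fold line.

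By the pair of log2 signals on its 2 arrays, no gene lay close to Arg1. The nearest of those with 1 symbol were Il1rn, the interleukin 1 receptor antagonist, at a distance of 1.19 log2 units, Tuba1a, a tubulin, at 1.23 and Csf3r, a granulocyte growth factor receptor, at 1.36. Their ratios were -1.34, -0.95 and -1.31, all smaller in size than that of Arg1. Mrc1 had a much closer neighbour, Timp1, an inhibitor of metalloproteinases, at 0.30, with signals of 16519 and 2667. Serpinb2, an inhibitor of plasminogen activators, followed at 0.71 with a ratio of -1.68, and Rflnb at 0.71 with -1.37. The likeness rests on 2 arrays per gene.

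The upstream part of the pathway was measured only in part. Il4 and Il13, the ligands, were at or below the floor in both genotypes. The partner chain Il13ra1 was too, with 656 and 503, and the common gamma chain Il2rg had no named probe set. Il4ra was therefore the only receptor chain with a ratio. Csf1, the macrophage growth factor, read 3081 and 506 and was at least 2.97-fold lower. Of genes with only such a bound, being above the floor in 1 genotype, 9.08% were lower and 9.89% higher by at least 2-fold.

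Of 12 measured genes of interleukin 4 receptor signalling, 5 were below 0 and the median was 0.07. Stat6, the transcription factor activated by this receptor, read 4450 and 3634, a log2 ratio of -0.29. Jak1, a kinase bound to Il4ra, stood at 0.08. Jak3, the kinase of the common gamma chain, was the 1 gene of this list past 2-fold, with 1443 in wild-type and 5686 in deficient cells, 3.94-fold higher. The wild-type reading of Jak3 was near the type A floor of 1036.5. Over all measured genes 3.0% were higher by 2-fold or more. Signal of Il4ra was thus lower while that of Jak3 was higher and Stat6 differed little.

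Of 9 measured transcription factors of the programme, 4 were below 0, with a median of 0.09. Over all measured genes 49.0% were below 0 and 3.0% were higher by 2-fold or more. Cebpb, which encodes C/EBPβ, stood at 0.25 with signals of 44494 and 52805, and Nr4a1, an orphan nuclear receptor, was 2.29-fold higher. Egr2 was at least 5.73-fold lower. Rxra and Creb1 were above the floor in deficient cells only, at least 5.06-fold and 2.76-fold higher, and the wild-type reading of Rxra was below 0. The other Creb1 probe set on type B was below the floor in both genotypes, at 172 and 37, and did not show this rise. Pparg, the lipid-activated receptor that sustains alternative activation, was below the floor in both. The targeted gene Cebpe itself had no probe set under its name, so the genotypes were not checked through it.

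Among the effector genes, 12 of 13 measured were below 0 (median -0.56). Without Arg1, Mrc1, Chil3 and Tgm2 these were 8 of 9, again with a median of -0.56. Over all measured genes 49.0% were below 0. Fn1, among those below 0, was read by a type B probe set at -0.17, while its type A probe set stood at 0.10. Besides Arg1 and Mrc1, 2 effectors were lower by 2-fold or more, as were 3.64% of all measured genes. They were Il1rn at -1.34 and the interleukin 1 decoy receptor Il1r2, which neutrophils also express, at -2.40. The deficient reading of Il1r2, 902, was near the type B floor of 690.17. Macrophage scavenger receptor Msr1 stood at -0.87, or -1.58 by its second probe set, and the lipoxygenase Alox15 at -0.73. Stab1, a scavenger receptor of the same programme, stood at 0.40. Retnla, Clec10a and F13a1, further markers of this state, had no named probe set.

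**Figure D4:**
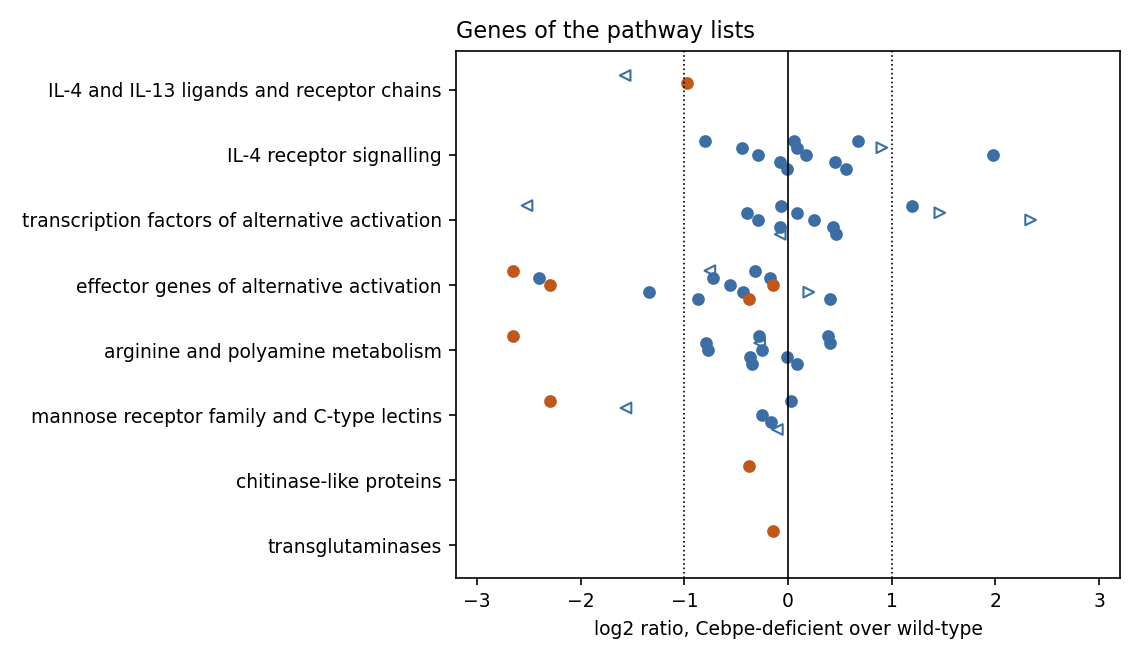
Log2 ratios, deficient over wild-type, of measured genes in 8 pathway lists, with the 5 genes in orange and other genes in blue. Filled circles are ratios, open triangles are bounds that point to the side on which the true value lies, and dotted lines mark 2-fold. Arg1 is the lowest of the effector and arginine lists and Mrc1 of the lectin list, while Il1r2 at -2.40 lies below Mrc1 among the effectors. The deficient reading of Il1r2, 902, was near its floor of 690.17.

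In arginine and polyamine metabolism 8 of 11 measured genes were below 0, and Arg1 was the 1 past 2-fold. Without Arg1 there were 7 of 10 below 0, with a median of -0.27. Over all measured genes 49.0% were below 0 and 3.64% were lower by 2-fold or more. Arg2, the mitochondrial arginase, read 3220 and 4264, a log2 ratio of 0.41 against -2.66 for Arg1. Odc1, which makes putrescine from ornithine, stood at -0.35, the arginine transporter Slc7a2 at -0.28 and the spermidine synthase Srm at -0.77. Nos2, which competes with arginase for arginine, passed the floor only in the wild type, narrowly, with 1253 and 109. Beside Mrc1, 3 lectin genes had ratios, between -0.25 and 0.02, and Cd72 was at least 2.95-fold lower. The related receptor Mrc2 was below the floor in both genotypes. Chil3 and Tgm2 were the only measured genes of the chitinase-like and transglutaminase lists.

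Over the 8 lists, 81 of 119 further genes had a named probe set and 42 had a ratio. Among all measured genes, 49.0% were below 0, 3.64% were lower and 3.0% higher by 2-fold or more. Of the 42 further genes with a ratio, 25 were below 0, with a median of -0.08, and 2 were lower and 2 higher by 2-fold or more. With the floor at the 30th percentile these became 7 and 6, and with it at the 70th 1 and 1.

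Of 15 defining markers of macrophages with a named probe set, 13 passed the floor in both genotypes. Fcgr1 passed it only in deficient cells and Mertk only in wild-type cells. Their ratios lay on both sides of 0, with 8 of 13 below it, and 1, the lipopolysaccharide co-receptor Cd14, was lower by 2-fold or more at -1.03. Their summed signal, bounded genes included, was 502937 in wild-type and 464493 in deficient cells. The median was -0.43, against -2.66 for Arg1 and -2.30 for Mrc1. The highest ratio of these markers was that of Ccr2, at 0.97. C1qa and C1qb, chains of complement C1q, stood at -0.89 and -0.80 and Adgre1, an adhesion receptor of the macrophage surface, at -0.52, while Cd68, a lysosomal glycoprotein of macrophages, stood at 0.29 and Csf1r, the receptor of the macrophage growth factor, at 0.84. Markers of resident peritoneal macrophages were below 0 in 8 of 8 cases, with a median of -0.71, led by Serpinb2. Their summed signals were 160574 and 116838. For Fn1 this held by the probe set read here, at -0.17, but its type A probe set stood at 0.10. Over all measured genes 49.0% were below 0. The part of resident macrophages in the lower Arg1 and Mrc1 was not tested.

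Neutrophil markers, of which 8 of 10 measured were below 0, had summed signals of 205546 and 149670. S100a8, the largest part of both sums, stood at -0.08. Lower by 2-fold or more were 4 of the 10: Il1r2 (-2.40), Ngp (-1.57), Ly6g (-1.44) and Csf3r (-1.31). Cxcr2 was at least 2.05-fold lower by its bound, while Elane and Mpo stood at 0.11 and 0.36. Over all measured genes 49.0% were below 0 and 3.64% were lower by 2-fold or more. Of the eosinophil markers, a source of interleukin 4, Prg2, Epx and Il5ra were below the floor in both genotypes, while the receptor gene Ccr3 was 3.79-fold lower. The eosinophil sums of 17207 and 9195 hold only Ccr3 and Alox15, and Alox15, the larger part, is also among the effector genes and the resident macrophage markers. All these sums cover only genes above the floor in at least 1 genotype. Mesothelial and fibroblast markers were below 0 in 5 of 5 measured cases, and their sums were 19228 and 10028. Mast cell and basophil markers summed to 17428 and 15325, B cell markers to 62101 and 53964 and dendritic cell markers to 10802 and 11811. T and NK cell markers summed to 6429 and 4436, and erythroid markers to 106112 and 69061. Single genes can carry such sums. Of 6 measured B cell markers 3 were below 0, with a median of 0.03. Of 3 measured dendritic cell markers 1 was below 0, Fscn1 at -1.18. Gzma was the only T and NK cell marker with a ratio. In the erythroid list Hbb-b2 stood at -1.62 and Klf1 at -0.43, while Hba-a1 stood at 0.04. What these differences contribute to the ratios of the 5 genes was not tested.

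Spearman's rho between the genotypes, across all probe sets of a type, was 0.929 for A and 0.921 for B. These are correlations across probe sets, which are not independent replicates. The 3′ to 5′ signal ratios of the actin control ranged from 0.823 to 0.893 and those of Gapdh from 0.758 to 0.841 over the 4 arrays.

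**Figure D5:**
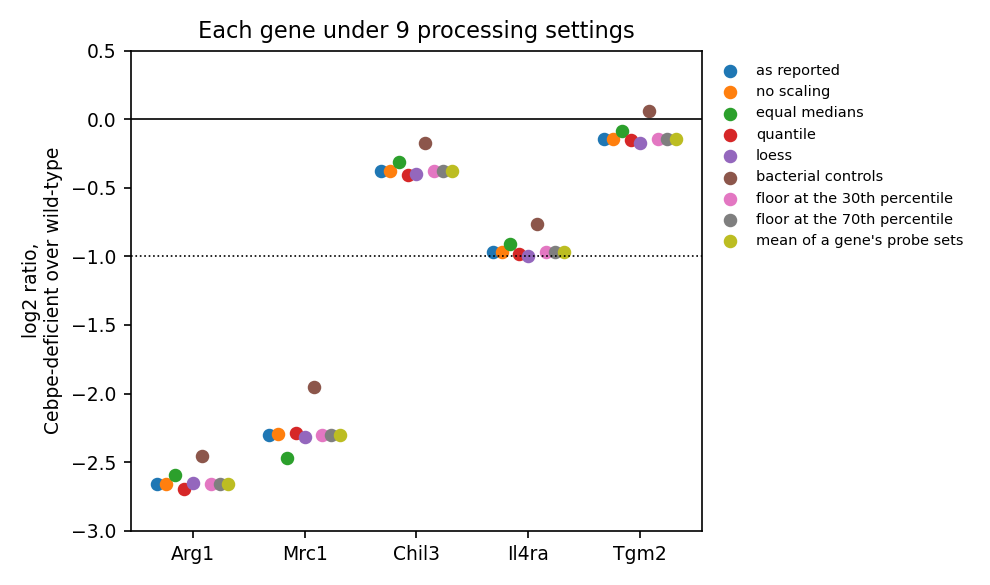
Log2 ratio of each of the 5 genes, deficient over wild-type, under 9 settings of scaling, signal floor and probe set choice, with 0 as a solid and 2-fold as a dotted line. Arg1 stayed between -2.69 and -2.45 and Mrc1 between -2.47 and -1.95, Il4ra reached the 2-fold line under loess, and Tgm2 crossed 0 under bacterial-control scaling.

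The order of the 5 ratios was the same under each of these settings, from Arg1 at the bottom through Mrc1, Il4ra and Chil3 to Tgm2. The other floors and the mean over probe sets could not change it, since each gene had a single probe set above every floor. Scaling by a single factor per array moves all type A genes equally. Only quantile and loess scaling could therefore reorder the type A genes. Chil3 ranged from -0.41 to -0.17 and Tgm2 from -0.18 to 0.06. Arg1 and Mrc1 differed by 0.36 and Chil3 and Tgm2 by 0.23, against an error SD of 0.28 for each ratio. Il4ra stood 1.33 above Mrc1 and 0.60 below Chil3, with an error SD of 0.47 for its own ratio.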

How the data were processed

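The 4 arrays were grouped by sample title. The authors deposited 1 intensity per probe set on a linear scale, as whole numbers of which 20.6% to 29.3% were below 0. How they were background-corrected and scaled is not given in the sources used here. Control probe-set names identify the arrays as Affymetrix. Gene names came from the platform annotation, where 7561 probe sets had 1 symbol, 224 several and 5394 none.

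Within a type, each array was multiplied by 0.999 to 1.001 to give equal 2% trimmed means. The median over both arrays served as the floor. Probe sets above it on both gave a log2 ratio, and those above it on 1 a bound against it. A gene was read by its brightest measured probe set relative to the floor. Genes named were the 5 genes, list genes past 2-fold (a selection of the cell markers), a fixed set of pathway genes and the 3 nearest in signal to Arg1 and to Mrc1. Some other list members, picked with their values in view, are named too. The genes and lists were chosen with earlier results of these data known. With 1 array per genotype and type, no p-value is given, and the number of arrays limits the precision. Alternatives were 5 other scalings, 2 other floors, the mean over probe sets, ranks among named probe sets and 3-fold. Scaling and calls were tested on simulated data. Tables were handled with pandas 2.3.3 and numpy 2.4.6 under Python 3.11.15. Trimmed means came from scipy 1.17.1, loess from statsmodels 0.14.6 and plots from matplotlib 3.10.9.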

Additional observations from a re-analysis of the deposited data

How the results depend on the processing

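No scaling, equal medians, quantile, loess (span 0.3) or bacterial-control scaling changed the count of the 5 genes lower by 2-fold or more (2) except loess, which gave 3 with Il4ra at the threshold. Neither the lower floor (30th percentile), the higher one (70th), a 3-fold threshold nor averaging a gene's probe sets changed it. The floors and the averaging could not, since each of the 5 genes had 1 probe set, which stayed above both floors. Tgm2 turned from -0.14 to 0.0612 under bacterial-control scaling, by that scaling's shift of all genes. Among all measured genes, 3.64% were lower and 3.0% higher by 2-fold or more. Of the 119 further pathway genes, 42 had a ratio, and 2 were lower and 2 higher by 2-fold or more as reported. With the floor at the 30th percentile 7 were lower and 6 higher, with 1 and 1 at the 70th and 1 and 1 at 3-fold. These settings change how many genes are measured or pass. Averaging a gene's probe sets gave 3 lower and 2 higher. Leaving out suffixed probe sets was not run for the 5 genes, as all have the suffix _s. Leaving out a replicate was not possible with 1 array per genotype and type. Il4ra was the dimmest gene relative to its floor. At 2.99 times the floor it fell just below the split at 3 times, so it was given the larger error SD.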
